A study of Mus musculus with 12 samples.

Results

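Oxidative phosphorylation is carried by 5 protein complexes of the inner mitochondrial membrane. Complexes I to IV pass electrons from NADH and succinate to oxygen, and complex V, the ATP synthase, uses the proton gradient that complexes I, III and IV build. All of these complexes except complex II are assembled from subunits of 2 genomes: a few core membrane subunits are encoded by mitochondrial DNA, which is transcribed from both strands into long RNAs and cut into single messages, and the rest are encoded in the nucleus and imported. The mRNAs of these subunits are described here in aortic smooth muscle cells (SMCs). The genes were taken by symbol alone from the deposited gene counts (symbols beginning Nduf followed by a, b, c, s or v, then Sdha to Sdhd, Uqcr, Cox4 to Cox8, Atp5, and the mitochondrial Nd, Co, Cytb and Atp genes), and symbols ending in -ps were dropped. The rule found 110 of the 52636 genes in the matrix. The 13 mitochondrial genes are all subunits. The 97 nuclear genes comprised 82 subunits (36 of complex I, 4 of complex II, 8 of complex III, 18 of complex IV and 16 of complex V), 8 complex I assembly factors (Ndufaf1 to Ndufaf8), 3 related proteins (Ndufa4l2, Cox7a2l and Atp5s) and 4 genes annotated as processed pseudogenes.

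The study sorted GFP-positive cells of the Myh11 lineage from the aortas of 12-week-old C57BL/6J mice and sequenced their RNA. Tgfbr1/2iSMCKO mice carried floxed alleles of both TGF-β receptor genes (Tgfbr1 f/f, Tgfbr2 f/f), the Myh11-CreERT2 driver and the mT/mG reporter. GFPiSMC controls carried Myh11-CreERT2 and mT/mG without floxed alleles, so the line and the deletion cannot be told apart. All mice received tamoxifen for 5 days. The labels name 1 mg/d from 4 weeks or 2 mg/d from 11 weeks of age, and the paper's description of these SMCs, taken soon after deletion in mature aortas, is that of the later regimen. Since the Cre transgene switches on GFP, the sort kept recombined cells of either genotype. Each of 3 animals per genotype gave 1 library from the ascending aorta and arch and 1 from the descending thoracic aorta, so that 12 libraries fell into 4 groups of 3. Sorted cells per library ranged from 9208 to 20000 and total counts from 20467027 to 31392396. The 8 SMC markers summed to 40700 to 48200 CPM (counts per 1000000 counts of the library) in GFPiSMC libraries. In Tgfbr1/2iSMCKO libraries they summed to 34500 to 43900 CPM. Their median log2 fold change (Tgfbr1/2iSMCKO over GFPiSMC) was above 0, at 0.21, with 0 called by edgeR (5.03% of all genes). At an unadjusted p under 0.05 (edgeR), 2 were lower and 0 higher, where 16.1% of all genes passed. Tagln was called lower by limma-voom, which called 4.27% of all genes. Gene counts do not resolve the floxed exons: between genotypes Tgfbr1 differed by 0.10 ± 0.12 (SE, log2 scale; adjusted p = 0.79, edgeR) and Tgfbr2 by -0.26 ± 0.11 (adjusted p = 0.233, edgeR), so the counts do not check the deletion. Both libraries of Tgfbr1/2iSMCKO animal 3 stood apart from those of the other animals of that genotype in the genes described here (11825 and 12000 sorted cells).

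No gene of the respiratory complexes passed the test between genotypes or between aortic segments. Over all 12 libraries, the 90 nuclear genes that passed the filter on low counts had a median log2 fold change (Tgfbr1/2iSMCKO over GFPiSMC) of -0.0057, and the 13 mitochondrial genes had one of -0.09, against 0.04 for all 22320 genes tested. Neither sign was stable: with 1 animal left out the nuclear median ran from -0.11 (without Tgfbr1/2iSMCKO animal 2) to 0.09 (without animal 3), and the mitochondrial one from -0.28 to 0.12 without the same 2 animals. Of the 103 genes tested, 0 were called by edgeR's quasi-likelihood test at an adjusted p under 0.05, where 5.03% of all genes were called. At an unadjusted p under 0.05, 7 nuclear genes were higher and 1 was lower, and 0 mitochondrial genes passed, against 16.1% of all genes tested. DESeq2 called 3 of the 103 (Ndufaf7, Ndufa9 and Cox4i2) where it called 9.11% of all genes, and limma-voom, with a random effect for the animal, called 0 where it called 4.27% of all genes. These are levels in bulk RNA of sorted cells, in which fewer cells of a type and less RNA per cell cannot be told apart. The 2 libraries of an animal enter this comparison as separate samples. Its p-values are too small and its intervals too narrow if an animal's segments vary together. The correlation within animals estimated for limma-voom was 0.16.

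The estimates were tight for most of the genes. The 95% interval lay within a 2-fold change in either direction for 86 of the 90 nuclear and 12 of the 13 mitochondrial genes, against 42.9% of all genes tested. It lay within a 1.5-fold change for 69 and 8 of them. All genes tested include genes with few counts, and no share was taken over genes of like counts. The nuclear genes with wider intervals were Sdha, the assembly factor Ndufaf4, the weakly counted Ndufa4l2 and the pseudogene Ndufb4c, and the mitochondrial one was mt-Atp6. By complex, the median log2 fold change of the nuclear subunits tested was -0.0057 for the 36 of complex I, 0.10 for the 4 of complex II, -0.04 for the 8 of complex III, -0.0072 for the 14 of complex IV and -0.0015 for the 16 of complex V. Estimates above and below 0 were nearly balanced in each of the larger complexes, with 17 above and 19 below in complex I, 7 and 7 in complex IV, and 8 and 8 in complex V.

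**Figure D1:**
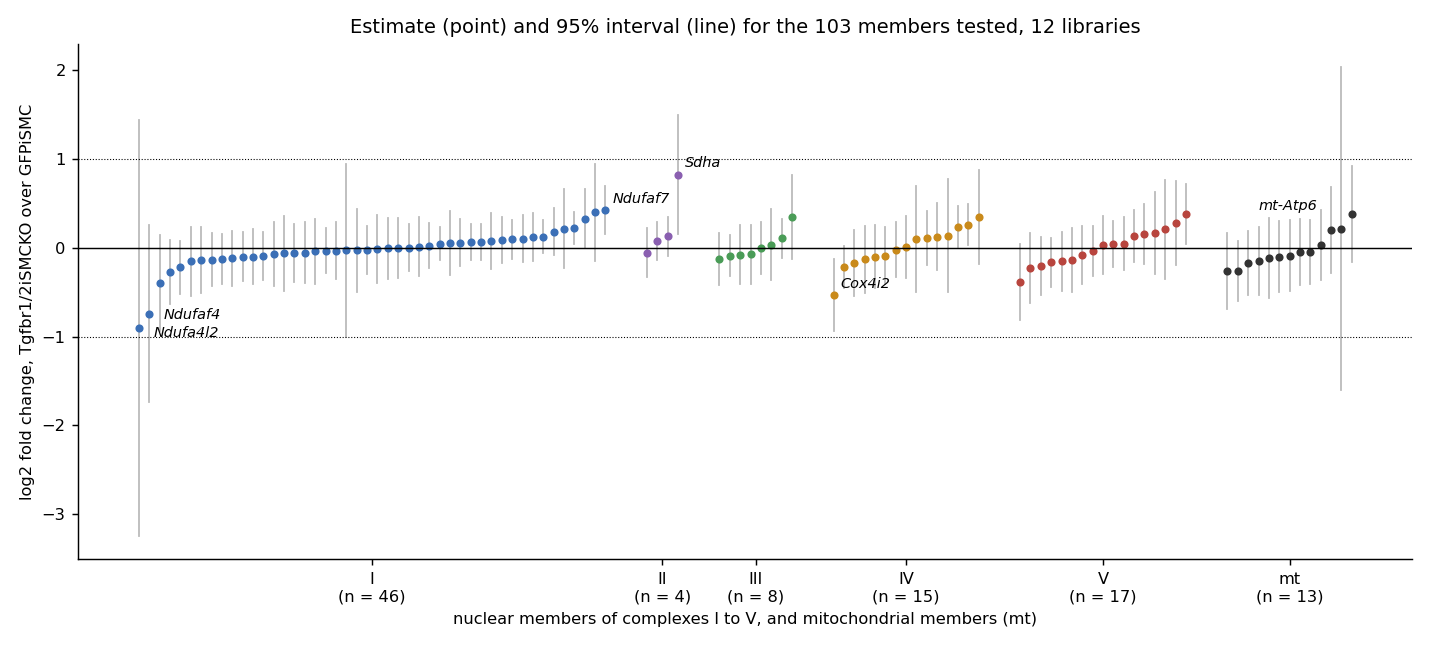
Log2 fold change between genotypes (Tgfbr1/2iSMCKO over GFPiSMC, 12 libraries) of the 103 genes tested, as points with 95% intervals as lines, sorted within each complex; the dotted lines mark a 2-fold change. The nuclear genes center on a median of -0.0057 and the mitochondrial genes on -0.09, and the intervals of Sdha, Ndufaf4, Ndufa4l2, Ndufb4c and mt-Atp6 reach past the dotted lines.

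The counts of the 13 mitochondrial genes fell into 2 classes. Per kb of transcript, mt-Cytb, the only mitochondrial subunit of complex III, averaged 15169 CPM per kb over the 12 libraries. It was followed by mt-Nd1 at 3145, mt-Co1 (the catalytic subunit of complex IV) at 2546, mt-Nd4 at 1832, mt-Nd2 at 1501, mt-Nd6 (the only one of these genes read from the light strand) at 918 and mt-Nd5 at 736. The other 6 lay between 11.7 and 61.7 CPM per kb: mt-Atp8 at 61.7, mt-Co3 at 27.9, mt-Atp6 at 21.1, mt-Co2 at 19.1, mt-Nd3 at 13.4 and mt-Nd4l at 11.7. Those 6 together held between 0.184% and 0.289% of a library's mitochondrial subunit counts, and mt-Cytb alone held 54.9% to 58.8%. The classes were apart in every library of each group. The kit is not stated to mark strand, so the values of mt-Nd6 may include RNA of the opposite strand.

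In the cell, mt-Nd4l and mt-Nd4 are read from a shared bicistronic message, and mt-Atp8 and mt-Atp6 from another. The deposited counts gave mt-Nd4 between 413 and 1275 times as many counts as mt-Nd4l in the same library. Of the 6 low genes, mt-Co2, mt-Co3, mt-Atp6, mt-Nd3 and mt-Nd4l each have an annotated copy on mouse chromosome 1, in which 97.6% to 99.85% of their 100-base windows are found letter for letter. For mt-Nd4 that share was 60.8% and for mt-Co1 26.3%, and for mt-Nd1, mt-Nd2, mt-Nd5, mt-Nd6 and mt-Cytb it was 0%. It was 0% for mt-Atp8 too, but that gene lies between mt-Co2 and mt-Atp6, whose starts are 914 bases apart both in the mitochondrial DNA and in their copies, so its place on chromosome 1 is a stretch of the same insertion that mostly has no annotated gene and whose sequence was not read here. The sequence of mt-Nd4l is shown because its copy matches it throughout. It lies at chrM:9877-10173 on the forward strand (GRCm38, GENCODE transcript), and the capitals mark the 294 bases that the copy Gm10222, at chr1:24612407-24612700 on the reverse strand, holds with 0 differences:

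mt-Nd4l: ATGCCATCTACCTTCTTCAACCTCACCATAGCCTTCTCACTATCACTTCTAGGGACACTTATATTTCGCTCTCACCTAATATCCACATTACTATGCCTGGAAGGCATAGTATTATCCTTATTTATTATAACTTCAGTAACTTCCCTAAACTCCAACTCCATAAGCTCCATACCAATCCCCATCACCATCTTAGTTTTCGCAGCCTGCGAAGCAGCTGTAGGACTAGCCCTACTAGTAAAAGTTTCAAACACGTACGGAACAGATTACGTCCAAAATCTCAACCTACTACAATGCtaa

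In mt-Nd3 and its copy Gm28438 a single base differs over 345 aligned bases. The stretch around it is chrM:9459-9521 on the forward strand for the mitochondrial gene and chr1:24613057-24613119 on the reverse strand for the copy, with the base that differs in capitals (T3C, the base of mt-Nd3 first, counted from 1 at the 5′ end of the gene):

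mt-Nd3: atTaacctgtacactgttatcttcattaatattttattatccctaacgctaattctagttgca
Gm28438: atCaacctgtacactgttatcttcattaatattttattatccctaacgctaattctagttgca

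The 7 annotated chromosome 1 copies themselves summed to between 79.6 and 197 CPM per library. How the authors' counting treated reads that fit both places is not given in the sources used here, and its part in the low counts was not tested. For the 5 genes with copies of nearly their whole length, and for mt-Atp8, the deposited values are therefore uncertain as levels of the mitochondrial message. The same holds in part for mt-Nd4 and mt-Co1, with 60.8% and 26.3% of their windows in a copy.

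**Figure D2:**
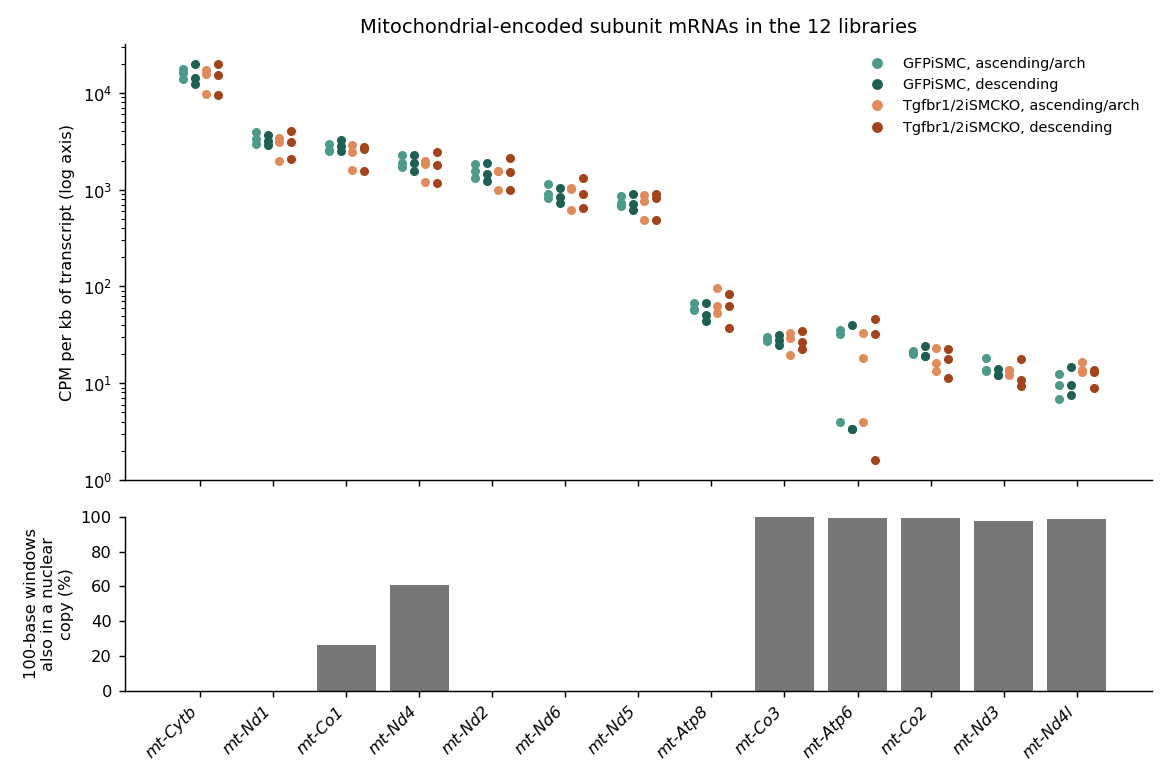
Top, CPM per kb of transcript (log axis) of the 13 mitochondrial genes, 1 point for each of the 12 libraries, colored by group. Bottom, share of each gene's 100-base windows found letter for letter in an annotated nuclear copy. The genes from mt-Cytb to mt-Nd5 average 736 to 15169 CPM per kb and the 6 to the right 11.7 to 61.7. Of those 6, 5 have 97.6% to 99.85% of their windows in a copy. For mt-Atp8, the place on chromosome 1 expected from the spacing of its neighbors' copies mostly has no annotated gene, and its sequence was not read.

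Between genotypes the 7 mitochondrial genes with high counts differed by log2 fold changes from -0.26 (mt-Co1, which has a partial nuclear copy) to 0.03 (mt-Nd6). mt-Co1 was at 4004, 4538 and 3923 CPM in the ascending GFPiSMC libraries (animals 1 to 3) and at 4371, 3844 and 5031 CPM in the descending ones. In Tgfbr1/2iSMCKO it was at 3763, 4486 and 2483 CPM in the ascending and at 4022, 4315 and 2421 CPM in the descending libraries. The groups overlapped, the lowest values being both libraries of Tgfbr1/2iSMCKO animal 3, and the difference was -0.26 ± 0.16 on the log2 scale (SE; adjusted p = 0.497), or -0.06 without that animal. For mt-Cytb the difference was -0.10 ± 0.18 (adjusted p = 0.887), and without Tgfbr1/2iSMCKO animal 3 it was 0.12. mt-Atp6, a proton channel subunit of complex V, had the widest spread of the mitochondrial genes: it lay between 1.08 and 2.69 CPM in 5 libraries of all 4 groups and between 12.4 and 31.7 CPM in the other 7. Its copy Gm10925 lay between 19.9 and 93.3 CPM and exceeded mt-Atp6 in every library.

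As a share of all counts, the mitochondrial genes took 3.08% ± 0.35 (SD, n = 3) in ascending and 2.98% ± 0.75 in descending GFPiSMC SMCs, and 2.93% ± 0.83 in ascending and 3.11% ± 1.08 in descending Tgfbr1/2iSMCKO SMCs. The nuclear genes took 1.97% ± 0.17 and 1.88% ± 0.31 in GFPiSMC, and 2.09% ± 0.31 and 2.16% ± 0.26 in Tgfbr1/2iSMCKO (ascending and descending). These shares are of raw total counts, whereas the fold changes use scaled library sizes. The differences between groups lay within the spread of the animals, and without Tgfbr1/2iSMCKO animal 3 the mitochondrial share was 3.41% and 3.68% and the nuclear share 2.26% and 2.31% in that genotype. The share of a single library ranged from 1.98% in both segments of Tgfbr1/2iSMCKO animal 3 to 4.14% in the descending library of animal 2 of that genotype. The ratio of mitochondrial to nuclear subunit counts lay between 1.07 and 1.76, with the 2 lowest values, 1.07 and 1.14, in Tgfbr1/2iSMCKO animal 3.

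**Figure D3:**
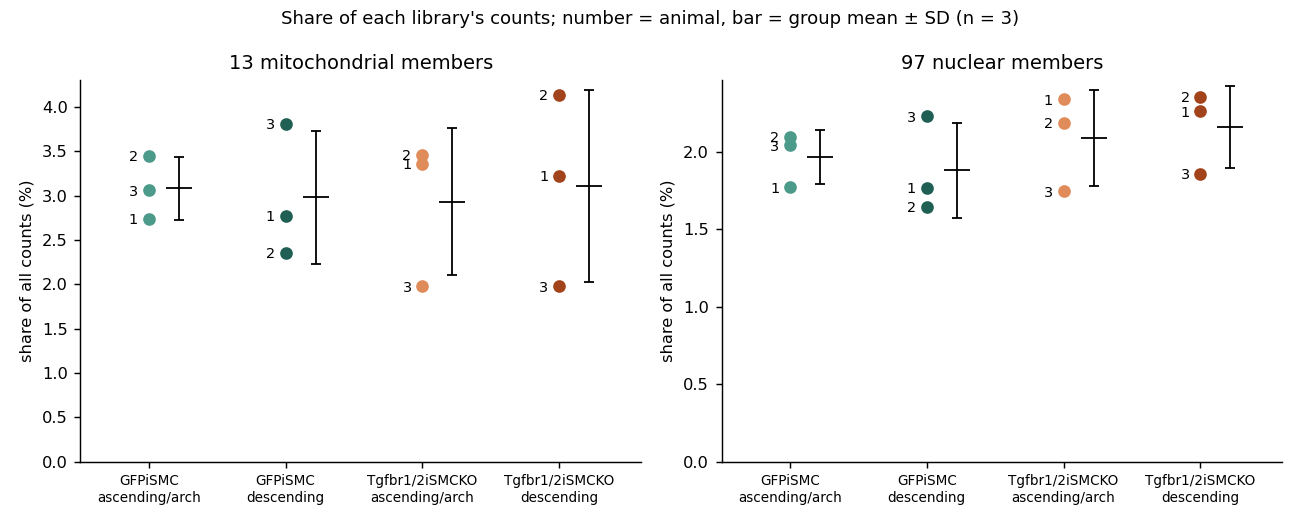
Percent of each library's counts in the 13 mitochondrial (left) and 97 nuclear (right) genes, with 1 numbered point per animal and bars for the group mean ± SD (n = 3). Group means lie between 2.93% and 3.11% on the left and between 1.88% and 2.16% on the right, and animal 3 of Tgfbr1/2iSMCKO is the lowest of its group in every panel.

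By level per length, the most abundant nuclear subunits of each complex were Ndufa11 (complex I, 738 CPM per kb), the iron-sulfur subunit Sdhb (complex II, 383), Uqcr10 (complex III, 956), Cox6a1 (complex IV, 1180) and the ATP synthase epsilon subunit Atp5e (complex V, 567). Their log2 fold changes between genotypes were 0.18 ± 0.12 for Ndufa11, 0.07 ± 0.10 for Sdhb, -0.08 ± 0.15 for Uqcr10, -0.02 ± 0.14 for Cox6a1 and -0.21 ± 0.15 for Atp5e (SE), and none passed the test. Complex IV has isoforms that differ between tissues. The forms known from heart and skeletal muscle were near absent: Cox8b had 0 counts in each library (a count of 0 allows up to 3 counts, or 0.147 CPM in the shallowest library), Cox6a2 had at most 6 counts, and Cox7a1 was at 1.47% to 2.96% of the level of its widely expressed partner Cox7a2 per kb. The testis forms Cox7b2 and Cox8c had at most 4 and 3 counts, and Cox6b2 had 38 to 108. Of the 3 genes for the membrane c subunit of ATP synthase, which encode the same mature protein, Atp5g3 was the highest, with Atp5g2 at 25.5% to 32.1% and Atp5g1 at 10.9% to 19.9% of its level per kb. Ndufa4l2, which low oxygen is known to induce, was at 0 to 2.29 CPM, against 549 CPM at most for its paralog Ndufa4, now counted with complex IV. The 7 genes under the filter on low counts were Cox6a2, Cox7b2, Cox8b, Cox8c and the pseudogenes Ndufa11b, Ndufs6b and Cox6c2. Of the 9 dropped -ps symbols, Ndufb1-ps had 2790 to 4959 counts and the others at most 19.

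Sdha, the flavoprotein that oxidizes succinate in complex II and links the citric acid cycle to the respiratory chain, had the highest estimate of all the nuclear genes. In ascending GFPiSMC SMCs it was at 147, 99.1 and 126 CPM, and in ascending Tgfbr1/2iSMCKO SMCs at 187, 216 and 440 CPM. In descending GFPiSMC SMCs it was at 236, 271 and 120 CPM, and in descending Tgfbr1/2iSMCKO SMCs at 281, 139 and 447 CPM. The ascending groups did not overlap and the descending groups did. Other genes of the set split in the ascending aorta too, among them Ndufa10, Ndufs1, Uqcrc1 and Atp5d upward and Cox5b and Atp5e downward. The share of all genes with such a split of 3 from 3 libraries was not counted, so the split is given as a description only. The log2 fold change was 0.82 ± 0.31 over 12 libraries (SE; 95% interval 0.15 to 1.495; adjusted p = 0.182, edgeR), 1.18 ± 0.43 in the ascending aorta (adjusted p = 0.298) and 0.47 ± 0.44 in the descending (adjusted p = 0.84). Without Tgfbr1/2iSMCKO animal 3 the 3 values were 0.35, 0.70 and -0.01. The other subunits of complex II had estimates nearer 0, with Sdhb at 0.07 ± 0.10, Sdhc at 0.13 ± 0.10 and Sdhd at -0.05 ± 0.13.

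The 2 isoforms of subunit 4 of complex IV had opposite estimates. Cox4i1 is the general form, and Cox4i2 is the form of lung and vascular muscle, known to respond to oxygen. Cox4i2 was at 18.7, 22.1 and 30.0 CPM in ascending and 15.6, 13.01 and 11.4 CPM in descending GFPiSMC SMCs. In Tgfbr1/2iSMCKO it was at 19.8, 19.9 and 15.1 CPM in ascending and 7.99, 6.35 and 10.2 CPM in descending SMCs. All 3 descending libraries lay below all 3 ascending ones in either genotype, and in the descending aorta the genotypes did not overlap. Ndufaf7, Ndufa9 and Sdhc also split by genotype in the descending aorta, upward. How many of all genes split in these ways was not counted, so the splits are given as a description only. The genotypes differed by -0.53 ± 0.19 on the log2 scale (SE; adjusted p = 0.143) over 12 libraries, and -0.70 ± 0.27 in the descending aorta (adjusted p = 0.33). From ascending to descending it was -0.82 ± 0.27 in GFPiSMC (unadjusted p = 0.0095, adjusted p = 0.525, edgeR) and -1.16 ± 0.27 in Tgfbr1/2iSMCKO (unadjusted p = 0.00103, adjusted p = 0.249, edgeR). DESeq2 called the last of these, with an adjusted p of 0.0044. The 8 fibroblast markers moved with segment as well, summing to 118 to 250 CPM in the ascending and 27.7 to 78.9 CPM in the descending libraries, and their part in the Cox4i2 values was not tested.

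Cox4i1 was at 357, 315 and 360 CPM in ascending GFPiSMC SMCs and at 470, 527 and 427 CPM in ascending Tgfbr1/2iSMCKO SMCs, with no overlap. In the descending aorta it was at 382, 370 and 372 CPM in GFPiSMC and at 412, 371 and 343 CPM in Tgfbr1/2iSMCKO. There the groups overlapped. Sdha and other genes of the set had a split like that of the ascending groups. The share of all genes with one was not counted, so this split too is a description only. The log2 fold change between genotypes was 0.47 ± 0.13 in the ascending aorta (SE; unadjusted p = 0.00335, adjusted p = 0.119, edgeR), with an adjusted p of 0.0219 by DESeq2, and the difference of the genotype effect between segments was -0.46 ± 0.18 (unadjusted p = 0.025, adjusted p = 1, edgeR). Relative to Cox4i1 per kb, Cox4i2 amounted to 7.16% ± 1.63 (SD, n = 3) in ascending GFPiSMC, 3.71% ± 0.53 in descending GFPiSMC, 4.01% ± 0.36 in ascending Tgfbr1/2iSMCKO and 2.31% ± 0.71 in descending Tgfbr1/2iSMCKO SMCs.

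**Figure D4:**
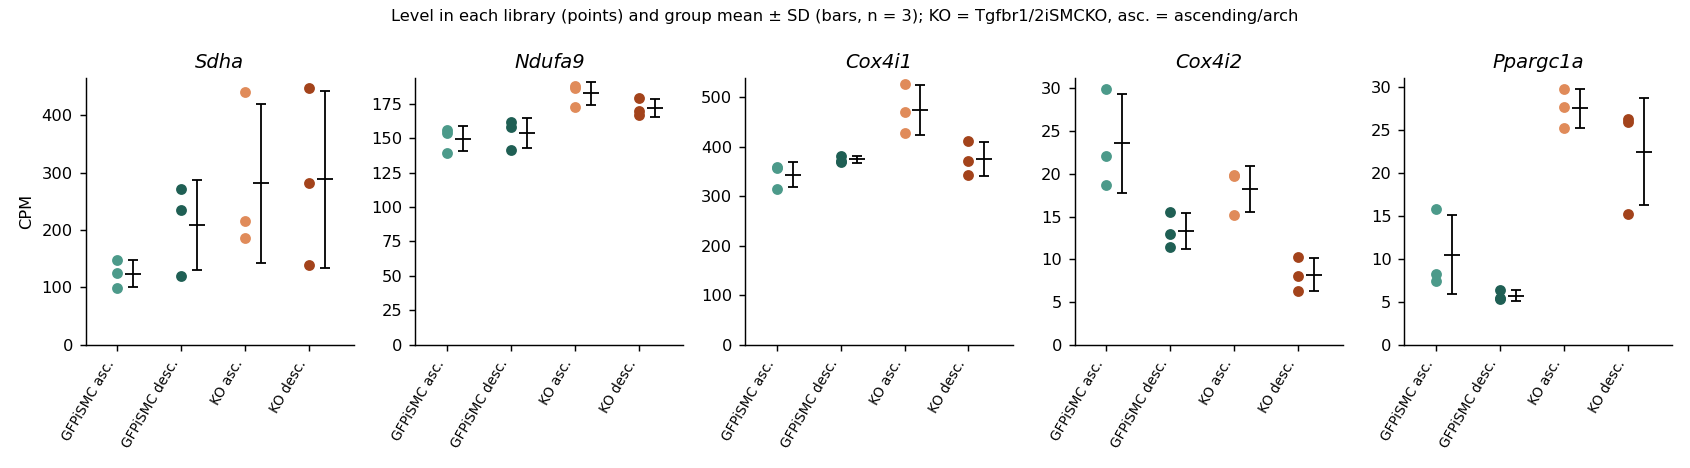
CPM of Sdha, Ndufa9, Cox4i1, Cox4i2 and the coactivator gene Ppargc1a in each library (points) with the group mean ± SD (bars, n = 3); the axes start at 0. Ndufa9 is the gene in which every Tgfbr1/2iSMCKO library lies above every GFPiSMC library, Sdha spans 99.1 to 447 CPM, and Cox4i2 is lower in descending than in ascending SMCs of either genotype.

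The remaining genes with an unadjusted p under 0.05 over 12 libraries were chosen after their values were seen, and all were higher in Tgfbr1/2iSMCKO. Ndufaf7, a methyltransferase that modifies a complex I subunit during assembly, had the smallest adjusted p: it averaged 62.7 ± 6.9 and 60.9 ± 10.1 CPM (SD, n = 3) in ascending and descending GFPiSMC SMCs and 83.9 ± 15.9 and 81.8 ± 3.5 CPM in Tgfbr1/2iSMCKO SMCs, a difference of 0.42 ± 0.12 on the log2 scale (SE; adjusted p = 0.075, edgeR). Ndufa9, a structural subunit of complex I, was at 139 to 162 CPM in the 6 GFPiSMC and 167 to 188 CPM in the 6 Tgfbr1/2iSMCKO libraries. It was the only gene of the 103 whose genotypes did not overlap, where 4.39% of all genes tested had non-overlapping genotypes, and its difference was 0.22 ± 0.09 (adjusted p = 0.191). The others were Ndufs1, the largest subunit of complex I (0.33 ± 0.15), Cox7a2l, a supercomplex factor (0.26 ± 0.11), and Atp5s (0.38 ± 0.16), with adjusted p from 0.218 to 0.309. Without Tgfbr1/2iSMCKO animal 3 Ndufs1 was at 0.17, and without animal 1 of that genotype Cox7a2l was at 0.18. The lowest estimates among genes averaging at least 100 counts were those of the assembly factor Ndufaf4 in complex I (-0.75 ± 0.46), Sdhd in complex II (-0.05 ± 0.13), Uqcrq in complex III (-0.13 ± 0.14), Cox4i2 in complex IV (-0.53 ± 0.19) and Atp5g1 in complex V (-0.39 ± 0.20). The highest were those of Ndufaf7, Sdha, Uqcrc1 (0.35 ± 0.22), Ndufa4 (0.35 ± 0.25, at 549 CPM in the descending library of Tgfbr1/2iSMCKO animal 2 against 170 to 296 CPM elsewhere) and Atp5s. Several of these rest on 1 animal: without Tgfbr1/2iSMCKO animal 3 Uqcrc1 was at 0.18, Atp5g1 at -0.19, Sdhd at 0.05 and Uqcrq at 0.0027, without animal 2 Ndufa4 was at 0.05, and Ndufaf4 ran from -1.18 (without Tgfbr1/2iSMCKO animal 1) to -0.42 (without GFPiSMC animal 3).

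No gene of the set was called within a segment or between segments either. In the ascending aorta the median log2 fold change between genotypes was -0.09 for the nuclear and -0.19 for the mitochondrial genes, (0.06 and -0.0037 without Tgfbr1/2iSMCKO animal 3), with 0 of 103 called where 1.41% of all genes were, and with 6 nuclear genes higher at an unadjusted p under 0.05 where 11.4% of all genes passed. In the descending aorta the medians were 0.04 and -0.02 (0.12 and 0.14 without that animal), with 0 called (1.72% of all genes) and 1 gene higher and 1 lower at an unadjusted p under 0.05 (10.7% of all genes). From ascending to descending, the medians were -0.09 and -0.05 in GFPiSMC SMCs, with 0 called (0.376% of all genes) and 2 genes lower at an unadjusted p under 0.05, Cox4i2 and the complex I subunit Ndufa5 (5.98% of all genes). In Tgfbr1/2iSMCKO SMCs they were 0.04 and 0.05, with 0 called (0.112% of all genes) and 2 genes lower, Cox4i2 and Cox4i1 (3.68% of all genes). The difference of the genotype effect between segments was called by edgeR for 0 genes of any kind (0% of all genes; 8 by DESeq2), with Ndufa5 and Cox4i1 at an unadjusted p under 0.05 (2.95% of all genes). DESeq2 called 1 of the 103 (Cox4i1) between genotypes in the ascending aorta (4.07% of all genes), 1 (Cox4i2) between segments in Tgfbr1/2iSMCKO (0.739% of all genes), and 0 in the descending aorta, between segments in GFPiSMC and for the difference of the genotype effect (4.06%, 1.28% and 0.0358% of all genes). The comparisons within a segment and between segments share libraries.

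The nuclear genes varied together between libraries of the same group. When each library was set against the mean of its own group, the first principal component of 84 well-counted nuclear genes carried 78.8% of their variance. At one end stood genes such as Sdha, Atp5b, Atp5a1, Uqcrc1, Ndufv1 and Ndufs1, 15 genes in all (3 of them assembly factors) with a median transcript length of 1653 bases. At the other stood 69 genes with a median length of 763 bases, led by Ndufaf4, Ndufb5, Ndufs4 and Atp5g1 and followed by genes such as Cox6c, Cox7c, Ndufa1 and Uqcrb. The 5 libraries above 0 on the axis, toward Sdha, came from 9208 to 12526 sorted cells. The 7 below 0 came from 14360 to 20000, with no overlap. Genes with at least 1 count numbered 30890 to 34035 in the former and 31555 to 36117 in the latter. This split depends on the cut at 0. Ascending GFPiSMC animal 3 (-0.17, 16292 cells) and descending Tgfbr1/2iSMCKO animal 1 (-0.27, 15914 cells) lay close below it. Sdha was 0.04 and 0.12 above the group mean in these libraries, and on the axis of other genes given below both lay above 0. Positions are relative to group means, and cell numbers are not. The 2 libraries of an animal could stand on opposite sides, as those of GFPiSMC animal 2 did (9208 cells from the descending and 20000 from the ascending aorta). The part of cell number in these values was not tested. In the libraries of Tgfbr1/2iSMCKO animal 3, Sdha was 0.75 (ascending) and 0.79 (descending) above its group mean on the log2 scale. The median of the 69 genes was 0.35 and 0.29 below it there, and that of the mitochondrial genes 0.45 and 0.54 below. In the descending library of animal 2 the order was turned, with Sdha 0.90 below, the 69 genes 0.21 above and the mitochondrial genes 0.48 above their group means. The descending GFPiSMC libraries of animals 2 and 3 stood on opposite sides in the same way, with Sdha 0.46 above and 0.71 below.

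**Figure D5:**
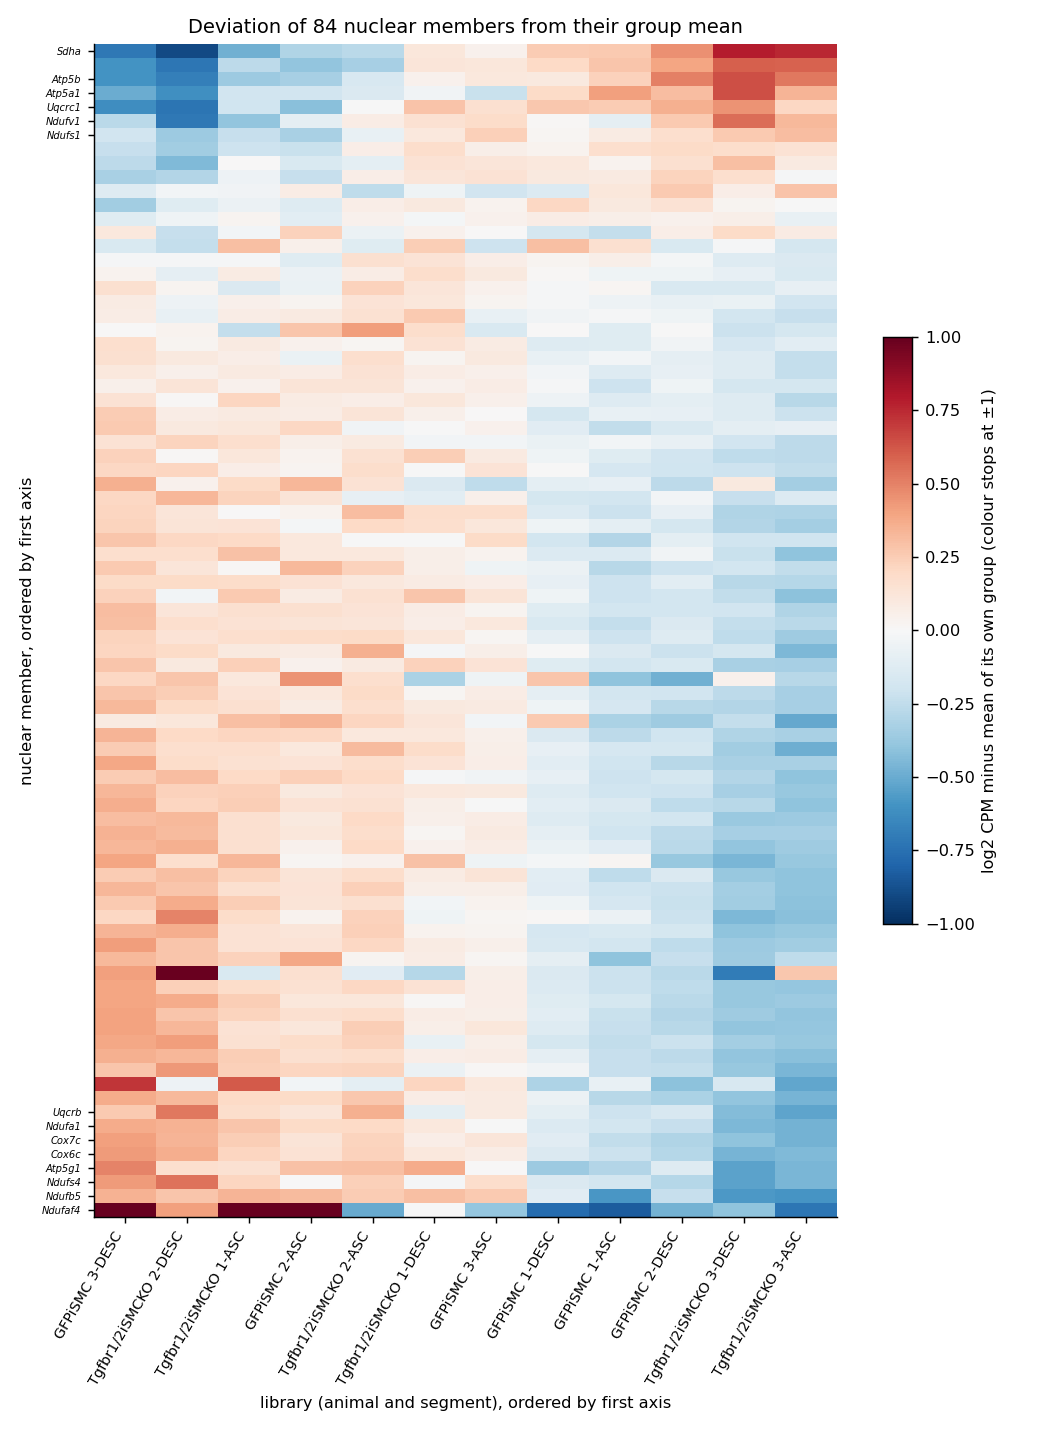
Log2 CPM of 84 nuclear genes (rows) in the 12 libraries (columns) minus the mean of the library's own group, with rows and columns ordered by the first principal component and only the genes named in the text labelled. Red is above and blue below the group mean; the 15 genes at the top, from Sdha downward, run opposite to the 69 below them, and the columns at either edge come from both genotypes and both segments.

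That axis was not peculiar to these genes. The first principal component of 4824 other protein-coding genes, computed the same way, carried 53.1% of their within-group variance, and it placed both libraries of Tgfbr1/2iSMCKO animal 3 at the same end, and the descending libraries of GFPiSMC animal 3 and Tgfbr1/2iSMCKO animal 2 at the other. Over the 84 nuclear genes, the position along the axis correlated with transcript length at a Spearman's rho of 0.38 and with GC content at 0.36, as a description of genes measured in the same libraries. A score of each library, the median of high-GC genes less that of low-GC genes among genes outside this set, ran from -0.42 (Tgfbr1/2iSMCKO animal 2, descending) to 0.34 (GFPiSMC animal 2, descending), with either genotype on both sides of 0. When this score was entered as a covariate, an alternative chosen after the data were seen, 7 of the 103 genes were called between genotypes over 12 libraries, where 10.2% of all genes were. Among them, Sdha was higher by 0.68 ± 0.09 (SE; adjusted p = 0.000229, edgeR), Uqcrc1 by 0.30 ± 0.08, Ndufs1 by 0.29 ± 0.08, Ndufaf7 by 0.41 ± 0.10 and Ndufa9 by 0.22 ± 0.06, and Ndufb3 fell by 0.25 ± 0.07 on the log2 scale. Sdha was then also called within each segment, at 0.65 ± 0.13 in the ascending (adjusted p = 0.0213) and 0.71 ± 0.13 in the descending aorta (adjusted p = 0.0087). No mitochondrial gene was called with the covariate in any comparison.

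Among 13 nuclear regulators of these genes, 1 was called between genotypes, and it was higher in Tgfbr1/2iSMCKO. Ppargc1a encodes PGC-1α, the coactivator best known for raising the expression of respiratory genes through NRF1, the ETS factor GABP and the estrogen-related receptors. It was at 7.48, 8.21 and 15.8 CPM in ascending and 5.41, 6.42 and 5.38 CPM in descending GFPiSMC SMCs. In Tgfbr1/2iSMCKO SMCs it was at 27.7, 29.8 and 25.3 CPM in the ascending and 25.9, 26.4 and 15.3 CPM in the descending aorta. Only the lowest Tgfbr1/2iSMCKO and the highest GFPiSMC library crossed, and the genotypes differed by 1.68 ± 0.23 (log2) over 12 libraries (SE; adjusted p = 0.000669, edgeR), 1.39 ± 0.32 in the ascending (adjusted p = 0.0552) and 1.97 ± 0.32 in the descending aorta (adjusted p = 0.00761). It was the 1 gene called of 13 regulators, where 5.03% of all genes were called. At an unadjusted p under 0.05 (edgeR), 1 regulator was higher and 2 were lower, where 16.1% of all genes passed. Ppargc1b (-0.02 ± 0.36) and Nrf1 (0.53 ± 0.27, adjusted p = 0.383) did not pass. Of 20 genes that copy, transcribe and process mitochondrial DNA, 0 were called and 2 were higher at an unadjusted p under 0.05, which 16.1% of all genes passed (median 0.13; Tfam, which packages the DNA and starts its transcription, at 0.28 ± 0.14). Of 38 further assembly factors of the complexes 0 were called (3 higher and 1 lower at an unadjusted p under 0.05, median 0.09), and of 78 mitochondrial ribosomal proteins 0 (2 higher and 3 lower, median 0.0037). In these 3 lists DESeq2 called 2 genes (Hsd17b10 and Mterf4, higher), 1 (Sdhaf1, higher) and 4 (1 higher and 3 lower), in that order, where it called 9.11% of all genes, and limma-voom called 0 in each.

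The promoters of the nuclear genes hold the letters those regulators read more often than promoters at large. For 74 of the 97 nuclear genes, RefSeq promoters (GRCm38.p6, 250 bases before to 50 after the start) were matched by gene identifier, or failing that by symbol. In these the NRF1 core GCGCATGCG stood on either strand in 12.7% of 79 promoters, against 1.75% of 32851 promoters. The ETS core CCGGAAG stood in 22.8% against 8.86%, the YY1 letters AAGATGGCG in 10.1% against 1.40%, and the estrogen-related receptor letters AAGGTCA in 10.1% against 4.72%. The promoters at large were not chosen to be like these in GC content or expression, and the nuclear genes without a matched promoter were not read. Atp5k and Atp5l, small membrane subunits of the ATP synthase, are shown because each holds 3 of the 4, in capitals on either strand (the NRF1 letters overlap their own reverse complement in Atp5k). They lie at chr5:108434350-108434649 and chr9:44920693-44920992, both on the reverse strand:

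Atp5k promoter: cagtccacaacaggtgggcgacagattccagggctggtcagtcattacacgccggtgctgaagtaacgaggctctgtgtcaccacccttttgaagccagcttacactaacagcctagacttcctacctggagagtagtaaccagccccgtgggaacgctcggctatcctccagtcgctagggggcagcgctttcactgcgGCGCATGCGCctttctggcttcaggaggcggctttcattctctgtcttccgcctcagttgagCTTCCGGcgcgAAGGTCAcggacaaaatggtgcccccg
Atp5l promoter: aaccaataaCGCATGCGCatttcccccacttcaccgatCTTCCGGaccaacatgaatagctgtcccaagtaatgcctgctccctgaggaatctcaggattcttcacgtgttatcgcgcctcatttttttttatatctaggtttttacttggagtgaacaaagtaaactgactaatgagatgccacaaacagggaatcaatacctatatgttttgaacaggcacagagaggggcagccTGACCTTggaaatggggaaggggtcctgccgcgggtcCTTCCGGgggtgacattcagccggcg

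A match of letters is not a binding site, and no binding was measured. Over all genes, edgeR called 5.03% between genotypes, DESeq2 9.11% and limma-voom 4.27%, and 16.1% passed an unadjusted p under 0.05 (edgeR). The lists that follow stand beside these shares. Of 18 enzymes of pyruvate oxidation and the citric acid cycle, 0 were called and 3 were higher at an unadjusted p under 0.05. Their median was 0.17, with citrate synthase, Cs, at -0.04 ± 0.12. Of 13 electron and metabolite carriers tested, 0 were called, with the complex III subunit Cyc1 at 0.38 ± 0.13 (adjusted p = 0.128), its soluble partner cytochrome c, Cycs, at -0.46 ± 0.18 (adjusted p = 0.187), and the main adenine nucleotide carrier Slc25a4 at 0.05 ± 0.09, and 3 were higher and 1 lower at an unadjusted p under 0.05. DESeq2 called 1 gene of each of these lists, Suclg1 and Etfa, both higher, and limma-voom called 0. Of 19 tested genes of glycolysis 2 were called (5.03% of all genes), both higher in Tgfbr1/2iSMCKO. Ldhb, the heart form of lactate dehydrogenase, was at 328 to 451 CPM in GFPiSMC and 606 to 1029 CPM in Tgfbr1/2iSMCKO libraries (1.09 ± 0.14 on the log2 scale, SE; adjusted p = 0.000332, edgeR). Pdk1, which shuts pyruvate dehydrogenase, was at 10.2 to 15.1 and 17.4 to 25.2 CPM (0.75 ± 0.17; adjusted p = 0.0164, edgeR). Other RNAs of the mitochondrial chromosome, its ribosomal and transfer RNAs, had a median of -0.13 with 0 of 21 called and 2 lower at an unadjusted p under 0.05, and the nuclear copies a median of -0.02 with 0 of 6 called and 0 at an unadjusted p under 0.05. DESeq2 and limma-voom called 0 of either kind.

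Markers of other cell types, several of them dense in mitochondria, were read in the same libraries. Of the 8 brown fat markers, Ucp1 had at most 10 counts, Elovl3 at most 12 and Cox8b 0, while Cidea had 656 to 3453 counts and was higher in Tgfbr1/2iSMCKO (1.70 ± 0.15; adjusted p = 1.14e-05, edgeR). It made up most of the sum of that list, 32.5 to 41.4 CPM in GFPiSMC and 81.1 to 119 CPM in Tgfbr1/2iSMCKO. The cardiac markers summed to 47.3 to 98.6 and 51.6 to 151 CPM, with Myl7 at 0 in every library. Of 5 cardiac markers tested, Actn2 was called lower in Tgfbr1/2iSMCKO by edgeR, 2 were lower and 2 higher at an unadjusted p under 0.05 (median 0.43), and DESeq2 called Tnni3 higher besides. The skeletal muscle markers summed to at most 33.8 CPM, the white fat markers to at most 139 and the endothelial markers to at most 168. The fibroblast markers summed to at most 250 and the macrophage and red cell markers to at most 86.0 CPM. Of 8 endothelial markers tested (median 1.02), edgeR called Cdh5 and Esam higher in Tgfbr1/2iSMCKO. Of 7 fibroblast markers tested (median -0.12), it called Col14a1 and Smoc2 lower. Cidea was the 1 gene called of 4 brown fat markers tested (median 0.44). Over all genes, edgeR called 5.03% and DESeq2 9.11%, and 16.1% passed an unadjusted p under 0.05 (edgeR). The part of these markers in the values above was not tested.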

How the data were processed

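RNA was measured by sequencing in 12 libraries of GFP-positive SMCs (4 groups of 3; total counts 20467027 to 31392396). Per the labels and the study's methods, the authors trimmed the reads, aligned them to mm10 with HISAT2, assembled and quantified them with StringTie, and deposited raw read counts per gene, whole numbers with no normalization. The step from coverage to counts is not given in the sources used here, and 32279 entries are 2 where 22574 are 1. Of the 52636 gene identifiers, 52489 matched a symbol in the GENCODE annotation of GRCm38.

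Genes were kept by edgeR's filterByExpr (22320), scaled by TMM and fitted by the quasi-likelihood test (edgeR 4.0.16, limma 3.58.1, R 4.3.3), with segment as a covariate over 12 libraries and as 4 group means otherwise. p-values were adjusted by Benjamini-Hochberg over all genes tested, and a gene was called at 0.05. No gene of the set was called, so the number of calls above the study's 2-fold cutoff is 0. Libraries are the replicates, the 2 of an animal included, and labels give separate animals. CPM uses the TMM-scaled library size, levels per kb the principal transcript. Intervals are 95% and cover the spread between libraries, and the floor of 3 counts covers counting error only. The fit was tested on simulated data. Alternatives were DESeq2 1.42.0, other scalings and filters, a replicate block, counts summed per animal, limma-voom, each animal left out, and a GC score chosen after seeing the data. The members and all gene lists were chosen with earlier results of these data known. Genes named were the mitochondrial genes, per complex the most abundant and the largest estimates with a mean of at least 100 counts, isoform pairs, list genes called, and others said to be chosen after their values were seen. Alignments of mitochondrial genes to annotated copies used Biopython 1.88. The NEBNext low-input kit is not stated to mark strand, so overlapping genes share reads. Some genes are not reported here.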

Additional observations from a re-analysis of the deposited data

Results flagged for a closer look

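In Sdhc, the membrane anchor of complex II, and in Cox4i1, the general form of subunit 4 of complex IV, the descending segment differed from the ascending segment in opposite directions in the 2 genotypes, in every animal. Sdhc was lower in the descending aorta of each of 3 GFPiSMC animals and higher in that of each of 3 Tgfbr1/2iSMCKO animals, and the tested difference of the genotype effect between segments was 0.25 ± 0.20 on the log2 scale (SE; adjusted p = 1, edgeR). Cox4i1 was higher in the descending aorta of each GFPiSMC animal and lower in that of each Tgfbr1/2iSMCKO animal, with a tested difference of -0.46 ± 0.18 (adjusted p = 1, edgeR). These were 2 of the 103 genes tested (1.94%), where 2.76% of all genes tested (616 of 22320) had such a pattern. The pattern was thus no more frequent in this set than over all genes.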

How the results depend on the processing

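The count of respiratory genes called, 0 in each of the 6 comparisons, rose under some settings. Over 12 libraries it was 3 with DESeq2, 2 with library size as the only scaling, 1 where genes had to average 50 counts, and 7 with the library GC score as a covariate. In the ascending aorta it was 1 with DESeq2 and 3 with the covariate, in the descending aorta 1 with the covariate, and between segments in Tgfbr1/2iSMCKO 1 with DESeq2. Without any 1 animal it stayed at 0 in every comparison. Scaling by library size alone moved the median of all genes between genotypes from 0.04 to 0.16 on the log2 scale, and under it mt-Cytb was at 0.022 and Sdhd at 0.069 in place of -0.10 and -0.05. With 1 animal left out, mt-Cytb ranged from -0.31 to 0.12, Sdhd from -0.16 to 0.053, Uqcrq from -0.21 to 0.0027, and Sdha in the descending aorta from -0.014 to 0.80. The covariate moved the median difference of the genotype effect between segments from 0.12 to -0.092 for nuclear and from 0.10 to -0.29 for mitochondrial genes. The cause of these changes was not tested. Over all genes, 451 were called between genotypes with counts summed per animal, 2034 with DESeq2 and 2271 with the covariate, in place of 1123. Segments of an animal share its number, as do unrelated animals of the 2 genotypes. With the replicate number as a block, 0 genes of the set were called in each comparison and the medians over 12 libraries were -0.02 (nuclear) and -0.13 (mitochondrial). Deviations of same-numbered libraries correlated from -0.242 to 0.661 within animals and from -0.527 to 0.216 across genotypes. With 3 animals per group the intervals above set the size of difference that these libraries can show.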
